A study of Homo sapiens with 4 samples.

Results

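The 6 human actin genes ACTB, ACTG1, ACTA2, ACTG2, ACTC1 and ACTA1 were examined among the 60721 genes counted in Hs578T cells after silencing of TLN1. The 6 genes were taken as a family by name. The family was picked because ACTG1 falls when siTLN1 is set against SCR, so that fall, and every share or ratio that contains ACTG1, is given here as a description without a test. The values of the other 5 isoforms were not the reason for that choice, although earlier results of these data were known when it was made. All 6 were found in the count table, and 5 of them passed the filter on low counts (ACTA1 did not).

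Hs578T is an established line from a human breast carcinoma. All 4 samples were transfected with GFP and with an RNA at 1.6 µM, which was a non-targeting control in SCR and an siRNA against TLN1, the gene of talin-1, in siTLN1, and RNA was collected after 48 h. Each group held 2 biological replicates of polyadenylated RNA. The count columns show the group and carry numbers that recur in both groups, so the libraries are called SCR a, SCR b, siTLN1 a and siTLN1 b here, without a claim that equal letters share a preparation. The design has 1 control RNA and 1 agent against TLN1, so effects of talin-1 loss and other effects of this siRNA cannot be told apart. In bulk RNA, fewer cells of a type and less RNA per cell cannot be told apart either.

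Total counts ran from 31854322 to 46353297 per library. TLN1 itself had 27592 and 30425 counts in SCR against 1888 and 2104 in siTLN1, so the target transcript was low in both libraries labelled siTLN1. The labels call the cells epithelial. Of 9 epithelial markers, EPCAM, CLDN7, KRT19, ESRP1 and GRHL2 had at most 6 counts in any library, CDH1 had 13 to 40 and CLDN4 35 to 60, while the keratin genes KRT8 and KRT18 had 546 to 800 and 3304 to 5809. All 5 mesenchymal markers had at least 3872 counts in each library, with 121157 to 186467 counts of VIM. On the log2 scale, CDH2 (−0.89, edgeR adjusted p 2.4e-05) and SPARC (−0.48, adjusted p 0.016) were lower in siTLN1. FN1 (0.25, adjusted p 0.343), VIM (0.023, adjusted p 0.940) and ZEB1 (−0.088, adjusted p 0.668) were not called. Thus 2 of these 5 were called, against 6.07% of all tested genes. The part of the mesenchymal markers in the isoforms' values was not tested. Of the skeletal and cardiac muscle markers, MYOD1, MYOG, MYH6 and TNNT2 were at 0 in all 4 libraries. CKM had at most 1 count and NPPA at most 6, while MYH3 had 13 to 36 counts and NKX2-5 672 to 958. With 2 libraries against 2, an exact two-sided permutation test on 1 value cannot go below p = 0.333, so p values come from a fit across all genes.

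Actin is the protein of microfilaments. Vertebrates have cytoplasmic beta- and gamma-actin (ACTB, ACTG1), made in nearly every cell, and muscle actins of smooth muscle (ACTA2, ACTG2), heart (ACTC1) and skeletal muscle (ACTA1). Talin couples integrins to filaments of these proteins, and free actin monomers restrain MRTF, the cofactor with which SRF drives many actin genes.

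The isoforms were compared in their coding sequences and their 3′ UTRs. The coding sequences of ACTB and ACTG1, both 1125 bases, were identical at 1027 positions (91.3%), the closest of the 15 pairs of isoforms. The other 14 pairs were 81.8% to 85.9% identical. In the 3′ UTRs of ACTB and ACTG1 the longest identical run was 11 bases, against 59 bases in their coding sequences. The 7-base word GACAACA, singled out earlier in these same data because genes with it in the 3′ UTR tended to have lower fold changes, was therefore looked up in each isoform. It occurred in the 3′ UTR of ACTG1 and in no annotated GENCODE 29 transcript of the other 5. Within ACTG1, 9 of 17 annotated transcripts held it. Among 12883 protein-coding genes tested, 7.37% held it in the 3′ UTR of the transcript with the longest coding sequence, and 29.3% in any transcript. In the transcript with the longest coding sequence, the other 5 isoforms had 3′ UTRs of 601 (ACTB), 149 (ACTA2), 290 (ACTG2), 2317 (ACTC1) and 254 (ACTA1) bases. The ACTG1 site lies at chr17:81510047-81510076 (GRCh38, minus strand), at position 625 of a 3′ UTR of 701 bases. It is shown because ACTG1 alone among the 6 isoforms held the word, which is in capitals.
ACTG1 3′ UTR site: tttgaagagatGACAACAaattttggtttt
The word was chosen on these data, so its presence in ACTG1 is no independent evidence, and its part in the fall of ACTG1 was not tested.

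The promoters held a feature common to most isoforms. The CArG box, the site bound by SRF, was searched on the RefSeq windows of 300 bases (250 before and 50 after the start, GRCh38.p14). The box reads the same on both strands, so 1 search covers both. It was present in 1.29% of all 35116 windows. Of the 5 isoforms with a window, ACTG1, ACTC1 and ACTA1 held 1 box each and ACTG2 held 2, while neither of the 2 windows of ACTA2 held an exact box. ACTG1, ACTG2 and ACTA1 had 1 window each, and ACTC1 had 3 windows with 1 box in total. The share of 1.29% is per window, while the isoforms are counted per gene. No window of ACTB is in the table used here. The 5 boxes are shown in capitals with their neighbouring bases, since the box is a feature that ACTG1 shares with other isoforms.
ACTG1 (chr17:81512874-81512903, minus strand): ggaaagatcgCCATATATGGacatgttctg
ACTG2 distal (chr2:73892888-73892917, plus strand): gaaaaaaccaCCTTATATGGtaatattgct
ACTG2 proximal (chr2:73892925-73892954, plus strand): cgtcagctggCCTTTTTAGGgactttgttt
ACTC1 (chr15:34795639-34795668, minus strand): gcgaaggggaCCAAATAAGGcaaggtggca
ACTA1 (chr1:229434172-229434201, minus strand): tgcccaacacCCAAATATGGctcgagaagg
The first base of the box lay 94 bases before the start in ACTG1, 109 in ACTC1 and 97 in ACTA1, and 110 and 73 bases before it in ACTG2. These matches describe the letters of the windows and not binding, and their part in the values of the isoforms was not tested.

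Gamma-actin transcript was the isoform that moved most among the abundant ones. ACTG1 (ENSG00000184009.12; GRCh38, chromosome 17, 81509971 to 81523847, minus strand) had 119313 counts in SCR a, 140546 in SCR b, 51731 in siTLN1 a and 77633 in siTLN1 b. As CPM, which scales counts to library size (here with TMM factors), these were 3753, 4035, 1421 and 1652. Both siTLN1 libraries lay below both SCR libraries, which the choice of the family on this fall had set. The siTLN1 mean of 1537 ± 163 CPM (SD, n = 2) was 39.5% of the SCR mean of 3894 ± 199 CPM (SD, n = 2). On the log2 scale the difference was −1.34 with a fitted standard error of 0.12. Between the columns that share a number, the log2 differences were −1.40 (a) and −1.29 (b). By level, ACTG1 went from rank 11 among tested genes in SCR to rank 51 in siTLN1. Among the 88 genes whose mean reached 1000 CPM it had the lowest log2 fold change, where the median was −0.0085, and it lost more CPM than any other tested gene.

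Beta-actin transcript, the most abundant isoform in each library, passed no test in either direction. ACTB (ENSG00000075624.16; chromosome 7, 5527148 to 5563784, minus strand) had 252040 and 300189 counts in SCR and 312552 and 427563 in siTLN1. Its levels were 7929 and 8619 CPM in SCR against 8586 and 9098 CPM in siTLN1. The groups overlapped, since SCR b lay above siTLN1 a. The means were 8274 ± 488 and 8842 ± 362 CPM (SD, n = 2 each), or 0.096 on the log2 scale (standard error 0.12). The adjusted p from the quasi-likelihood test of edgeR was 0.728. The 95% interval ran from 0.898-fold to 1.27-fold, so neither a modest rise nor a slight decrease of ACTB could be told from no change. In CPM, the mean of ACTB was higher by 568 in siTLN1, against a difference of −2358 for ACTG1.

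**Figure D1:**
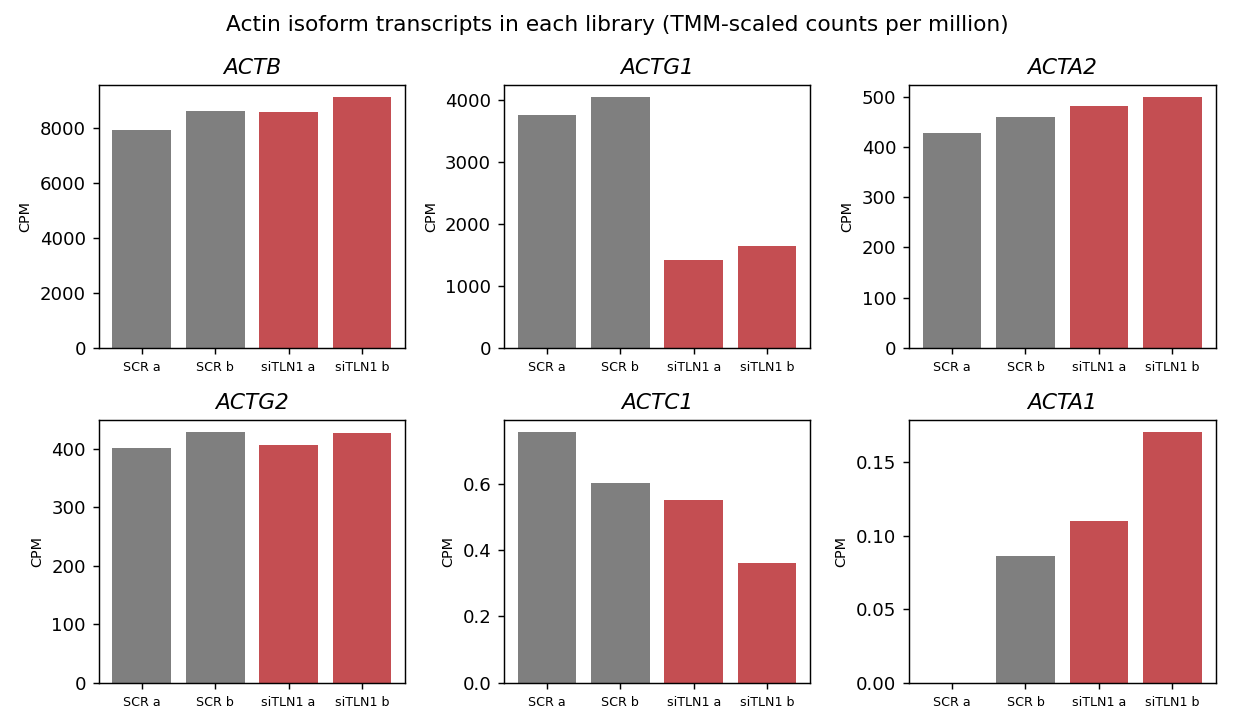
Level of each actin isoform in each library, in TMM-scaled CPM, with 1 bar per library and its own linear vertical axis in each panel (grey, SCR; red, siTLN1). ACTG1 lies at 3753 and 4035 in SCR and at 1421 and 1652 in siTLN1, ACTB overlaps between groups, and the axes of ACTC1 and ACTA1 stay below 1 CPM.

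The smooth muscle isoforms formed a second tier. Per kilobase of exon, ACTB was 15.6 to 16.4 times ACTA2 and 22.1 to 23.8 times ACTG2 over the 4 libraries. Per kilobase of the transcript with the longest coding sequence, these ranges were 12.5 to 13.2 and 21.3 to 22.9. ACTA2 (ENSG00000107796.13; chromosome 10, 88935074 to 88991339, minus strand), the alpha-actin used as a marker of smooth muscle cells and myofibroblasts, had 427 and 459 CPM in SCR and 481 and 498 CPM in siTLN1. Both siTLN1 libraries lay above both SCR libraries, and groups did not overlap for 48.4% of all tested genes. The log2 difference of 0.14 (standard error 0.095, interval 0.961-fold to 1.27-fold) did not pass the edgeR test (adjusted p 0.443). Exons of ACTA2-AS1 and FAS on the opposite strand share 30.1% of the exon bases of ACTA2, and a same-strand gene shares 13.5%. The counting used no strand option, so reads there cannot be told apart by strand and the count of ACTA2 is uncertain. ACTA2-AS1 itself had 25 and 25 counts in SCR and 46 and 45 in siTLN1, with an adjusted p of 0.346.

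ACTG2 (ENSG00000163017.14; chromosome 2, 73892314 to 73919865, plus strand), the gamma-actin of enteric smooth muscle, had 400.4 and 428 CPM in SCR and 406 and 427 CPM in siTLN1. The 4 values interleaved. The log2 difference was 0.0070 (standard error 0.095, edgeR adjusted p 0.983), and the 95% interval from 0.874-fold to 1.15-fold leaves out a change of the size seen for ACTG1. Its sign turned to −0.040 without SCR a and −0.026 without siTLN1 b. ACTA2 and ACTG2 were at nearly equal CPM in SCR. Their log2 ratio (ACTA2 over ACTG2) was 0.093 in SCR a, 0.10 in SCR b, 0.25 in siTLN1 a and 0.22 in siTLN1 b.

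The striated muscle isoforms were near the limit of detection. ACTC1 (ENSG00000159251.8; chromosome 15, 34790230 to 34795549, minus strand), cardiac alpha-actin, had 24 and 21 counts in SCR and 20 and 17 in siTLN1. Exact 95% Poisson intervals, which cover counting error only, ran from 15.4 to 35.7 for the highest of these and from 9.90 to 27.2 for the lowest. The log2 difference was −0.60 (standard error 0.38, edgeR adjusted p 0.419), not detectable at this depth. Exons of GJD2-DT on the opposite strand share 14.2% of its exon bases, so its few counts carry the same uncertainty as those of ACTA2. ACTA1 (ENSG00000143632.14; chromosome 1, 229431245 to 229434098, minus strand), skeletal alpha-actin, had 0 and 3 counts in SCR and 4 and 8 in siTLN1. Its summed counts of 3 and 12 gave a ratio of 3.20 (siTLN1 over SCR, scaled by total counts) with an exact 95% interval from 0.863 to 17.7. This interval pools the libraries of each group and covers counting error only, not the spread between libraries. By the rule of 3 counts, a one-sided limit on a count of 0, the 0 in SCR a allows up to 0.0942 CPM. The two-sided exact Poisson interval of that 0 reaches 3.69 counts. The 4 cardiac markers summed to 21.2 and 21.9 CPM in SCR and 19.7 and 20.5 CPM in siTLN1, nearly all of it NKX2-5, and the 4 skeletal muscle markers summed to at most 0.919 CPM in any library.

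Of the 4 tested isoforms other than ACTG1, edgeR called 0, against 6.07% of all tested genes called in either direction (2.3% higher, 3.77% lower). At an unadjusted p under 0.05 the count was 0 as well, and DESeq2 (with an adjusted p for 3 of the 4), limma-voom and limma-trend without a block also called 0. The intervals in the plot of isoform changes differ in width with the counts behind them.

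**Figure D2:**
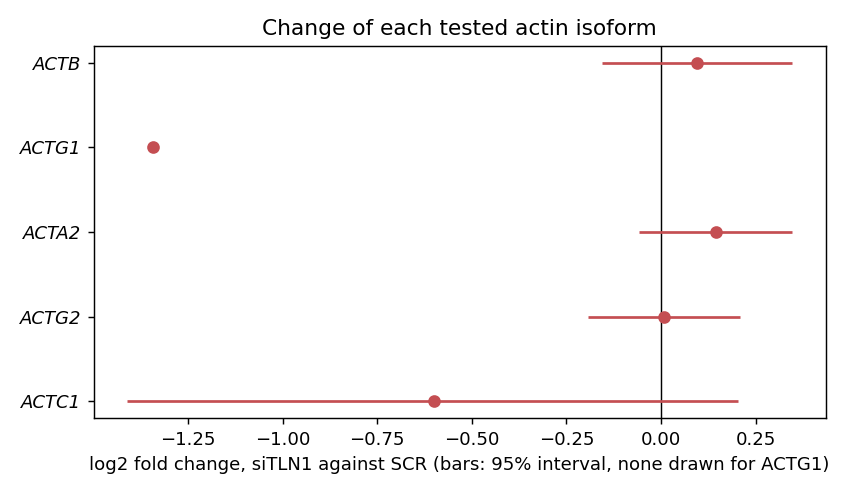
Log2 fold change of each tested isoform, siTLN1 against SCR, as a point, with its 95% interval from the quasi-likelihood fit as a line for the 4 isoforms other than ACTG1. The point of ACTG1 lies at −1.34, the intervals of ACTB, ACTA2 and ACTG2 include 0 and stay within −0.19 to 0.35, and that of ACTC1 reaches from −1.41 to 0.20.

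The make-up of actin transcripts therefore shifted, which describes the fall of ACTG1 on another scale. ACTG1 made up 30.002% and 29.8% of summed actin CPM in SCR and 13.0% and 14.1% in siTLN1. ACTB went from 63.4% and 63.6% to 78.8% and 77.9%. The SDs within groups were 0.144 and 0.781 percentage points for ACTG1 and 0.191 and 0.626 for ACTB, while the group means differed by −16.3 points for ACTG1 and 14.9 points for ACTB. The share of ACTA2 was 3.41% and 3.39% in SCR and 4.42% and 4.27% in siTLN1. The share of ACTG2 was 3.20% and 3.16% against 3.72% and 3.66%. The highest share in any library was 0.00603% for ACTC1 and 0.00146% for ACTA1.

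**Figure D3:**
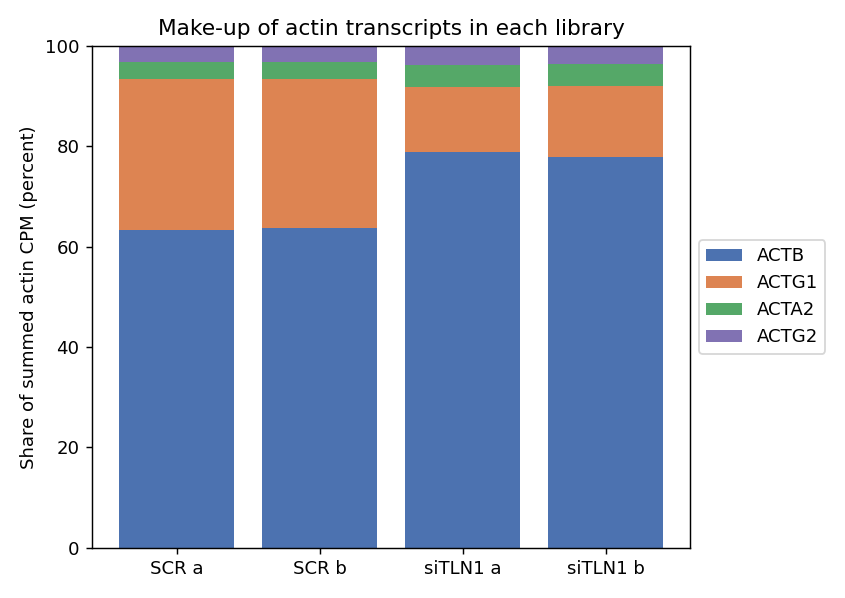
Share of each isoform in the summed actin CPM of each library, as stacked bars that total about 100% (ACTC1 and ACTA1 are too low to draw). The ACTG1 band narrows from a mean of 29.9% in SCR to 13.6% in siTLN1, and the other 3 bands widen in a sum that contains ACTG1.

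Shares of 1 sum are tied to one another, so they were also taken without ACTG1. Over the 5 isoforms other than ACTG1, an alternative chosen after seeing the data, the share of ACTB differed by 0.097 percentage points between groups, that of ACTA2 by 0.17, and that of ACTG2 by −0.27 points in place of 0.51. The sum of all 6 isoforms was 12510 and 13542 CPM in SCR and 10895 and 11676 CPM in siTLN1. As a part of the TMM-scaled library size, it was 1.25% and 1.35% in SCR and 1.09% and 1.17% in siTLN1. The siTLN1 mean of this sum was 86.6% of the SCR mean. Without ACTG1 the sum was 106.8% of the SCR mean, with overlapping libraries (8757 and 9507 against 9474 and 10024 CPM).

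Levels of different isoforms were compared per length. Per kilobase of annotated exon, ACTB was 1.81 and 1.83 times ACTG1 in SCR, and 5.17 and 4.71 times ACTG1 in siTLN1. Per kilobase of the transcript with the longest coding sequence these ratios were 2.48 and 2.51 in SCR and 7.10 and 6.47 in siTLN1. On the log2 scale the ratio of ACTG1 to ACTB differed by −1.44 between groups under either length, which cancels in the difference. ACTA2 lay above ACTG2 per kilobase of exon, at 149 against 109 CPM per kilobase in SCR and 165 against 109 in siTLN1.

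Near-identical copies make these levels less certain, since multi-mapping reads were not asked for in the counting command. Of the 50-base words in the ACTB transcript, 10.3% also occurred in an annotated transcript of another gene, most often ACTBP2, and for ACTG1 the share was 3.58%. In both genes 0 of the shared words lay in the 3′ UTR. At 100 bases the shares fell to 0.165% for ACTB and 0 of 2157 words for ACTG1. The read length is not given in the sources used here. The 33 processed pseudogenes named after ACTB or ACTG1 held 134 and 119 counts together in SCR and 118 and 157 in siTLN1. Adding them to their parents left the log2 ratio of ACTG1 to ACTB at −1.44. The 21 ACTG1 pseudogenes alone had 65 and 50 counts in SCR and 54 and 71 in siTLN1.

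Other genes with an actin-like sequence were rare transcripts. ACTBL2 (ENSG00000169067.4), an intronless beta-actin-like gene, had 46 and 51 counts in SCR and 115 and 94 in siTLN1, or 1.45 and 1.46 CPM against 3.16 and 2.00 CPM. The siTLN1 libraries lay above the SCR libraries but differed widely from each other. The log2 difference of 0.80 (standard error 0.25) did not pass the edgeR test (adjusted p 0.0763). It was 0.46 (adjusted p 0.556) without siTLN1 a, and 1.12 (adjusted p 0.0101, a call) without siTLN1 b. POTEF, a fusion of ankyrin repeats with an actin sequence, had 69 and 58 counts against 110 and 74 (log2 fold change 0.23, adjusted p 0.743). ACTBP7 had 23 and 20 counts in SCR against 14 and 25 in siTLN1 (adjusted p 0.545), and ACTBP2 had 9 and 21 against 21 and 23 (adjusted p 0.830). Of the 10 such sequences tested, edgeR called 0, against 6.07% of all tested genes. At an unadjusted p under 0.05 there were 2 of 10, against 19.8% of all tested genes, and DESeq2 (with an adjusted p for 2 of the 10), limma-voom and limma-trend without a block called 0.

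The genes that fold, bind, nucleate or modify actin were described by 8 lists with 146 genes, of which 134 were tested. Of these, 0 were called higher and 3 lower, which is 2.24%, against 6.07% of all tested genes called (2.3% higher and 3.77% lower). Their median log2 fold change was −0.018, against 0.0033 over all genes tested. The actin-folding list, made of the CCT chaperonin, prefoldin and PDCL3, had 2 of 16 called (0 higher, 2 lower) and a median of 0.074. CCT7, a chaperonin subunit, had 376 and 384 CPM in SCR and 275 and 314 CPM in siTLN1, a log2 fold change of −0.37 (edgeR adjusted p 0.0327). This call was lost without SCR a, SCR b or siTLN1 a (adjusted p 0.0627, 0.119 and 0.384) and with no filter on low counts (0.0716). CCT6B, a rare paralog of CCT6A, had 23 and 22 counts against 11 and 7 (adjusted p 0.0403), and its call was lost without any 1 of the 4 libraries, with adjusted p from 0.0569 to 0.254, and with no filter on low counts (0.0661). The most abundant chaperonin genes per length were CCT5 and CCT6A, with log2 fold changes of 0.079 (adjusted p 0.728) and 0.069 (0.758).

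Monomer binding and filament turnover had 1 of 27 genes called, which was lower, with a median of −0.013. GMFB, which removes Arp2/3 branches, had 70.1 and 58.4 CPM in SCR and 36.6 and 36.0 CPM in siTLN1. Both siTLN1 libraries were below both SCR libraries, with a log2 difference of −0.82 (standard error 0.11, edgeR adjusted p 0.000144). Its call held without each of the 4 libraries. The monomer-binding genes highest per length were TMSB10 (thymosin beta-10; log2 fold change −0.037, adjusted p 0.901) and PFN1 (profilin-1; −0.093, adjusted p 0.691).

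The other 6 lists held 91 tested genes and 0 calls by edgeR, with 14 at an unadjusted p under 0.05, against 19.8% of all tested genes at that threshold. limma-voom and limma-trend without a block called 0 of them and DESeq2 called 1, VCL, which encodes vinculin. The list medians were 0.074 for actin-related proteins (11 genes tested), −0.014 for nucleation and elongation (33), −0.11 for actin modification (12), −0.0032 for tropomyosins and capping (14), −0.013 for SRF and its cofactors (8) and −0.054 for smooth muscle contractile genes (14). Among actin-related proteins, ACTR2 and ACTR3, the Arp2/3 subunits that resemble actin, had log2 fold changes of −0.13 (adjusted p 0.520) and −0.12 (0.538). ARPC2, another Arp2/3 subunit, and VASP, a filament elongator, were at −0.11 (0.563) and −0.17 (0.355). MICAL2, an enzyme that oxidises actin, was at 0.039 (0.890), and MICALL1, a MICAL-like protein, at −0.070 (0.746). TPM2 and TPM4, tropomyosins that line filaments, were at −0.033 (0.907) and 0.0042 (0.992).

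SRF, the factor of the CArG box, had 131 and 139 CPM in SCR and 129 and 140 CPM in siTLN1, a log2 fold change of −0.0025 (adjusted p 0.995 in edgeR), which turned to 0.011 with no filter on low counts. ELK3, an SRF partner, was at 0.21 (adjusted p 0.257). Of the contractile genes, MYL9, a myosin light chain, was at −0.18 (adjusted p 0.328) and MYH9, the non-muscle myosin heavy chain, at −0.019 (0.955). The summed level of the 6 smooth muscle markers was 839 and 792 CPM in SCR and 783 and 758 CPM in siTLN1, and 0 of the 5 that were tested were called. TAGLN, which encodes transgelin, had 20081 to 26956 counts per library, while DES, which encodes desmin, had 1 to 5. The part of these markers in the values of ACTA2 and ACTG2 was not tested.

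**Figure D4:**
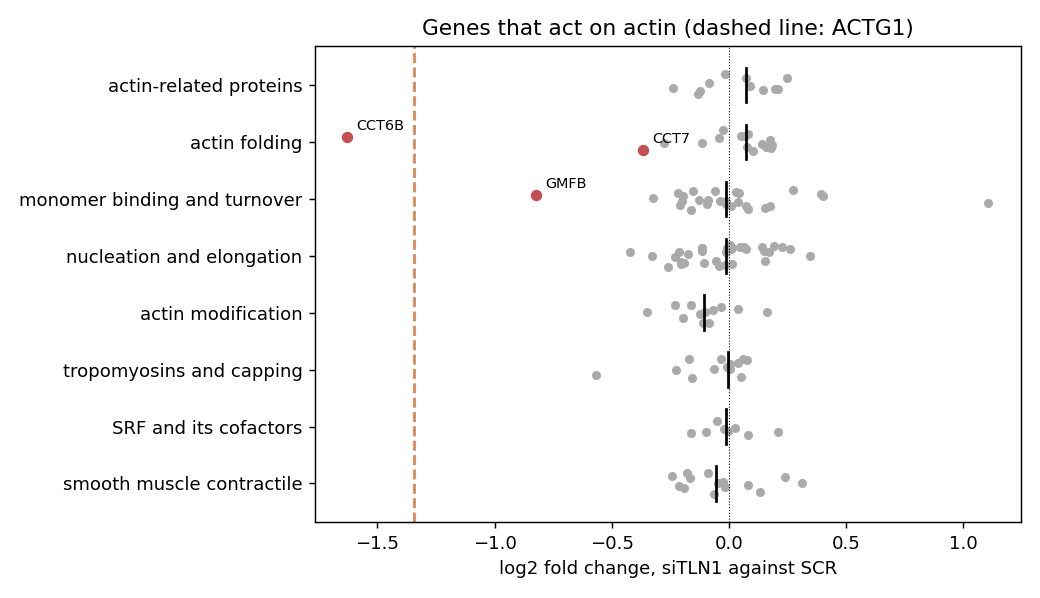
Log2 fold change, siTLN1 against SCR, of the tested genes in 8 lists of genes that act on or with actin; points are genes, red where edgeR's adjusted p is under 0.05, black bars are list medians and the dashed line is ACTG1 at −1.34. The 3 red points are CCT6B, CCT7 and GMFB, and the list medians lie between −0.11 and 0.074.

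The genes closest to ACTG1 in their pattern were found by the Euclidean distance of log2 CPM, centred on each gene's mean over the 4 libraries, among genes whose mean reached 5 CPM. With 4 libraries in 2 groups this measure mostly reads the size of the group difference. Deviations of ACTG1 were 0.62 and 0.72 in SCR and −0.78 and −0.56 in siTLN1. The nearest was PMP22, peripheral myelin protein 22, at a distance of 0.0914, with 0.67 and 0.66 in SCR and −0.74 and −0.58 in siTLN1. The next were DHRS7B (0.202), CXCL8 (0.208), P4HA1 (0.234) and GLRX (0.244). They encode a short-chain dehydrogenase, the chemokine interleukin-8, a collagen prolyl hydroxylase subunit and glutaredoxin. Of these 5 genes, 4 (all but CXCL8) held GACAACA in the 3′ UTR of the chosen transcript, against 7.37% of tested protein-coding genes. The word was singled out because genes with it tended to have lower fold changes, and these neighbours were picked for a like fall. Both choices depend on the same contrast and favour a share above that of all genes, so this count is a description only. Of the 3 called pathway genes, 0 held it in the 3′ UTR of the chosen transcript. CCT7 and GMFB held it in at least 1 annotated transcript, at a place not looked up, against 29.3% of tested protein-coding genes.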

How the data were processed

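The libraries were stranded, per the labels' protocols, but per the file headers the deposited raw counts came from featureCounts 2.0.0 run in paired mode on GENCODE 33 (GRCh38) without strand or multi-mapping options. STAR 2.7.9a is named in the submitters' processing notes. Exon length in bases, another unit, is also deposited there. A further deposited file holds log2 CPM of 16137 genes, with columns named by replicate. Count column names give the group and numbers that match no replicate label, and only the group was used to map them. Symbols came from a reference table by Ensembl identifier. Of 60721 genes, 16137 passed filterByExpr (minimum count 10, minimum total 15). The contrast was fitted in edgeR 4.0.16 (under R 4.3.3; TMM, robust glmQLFit, glmQLFTest, Benjamini-Hochberg over all tested genes, threshold 0.05); CPM of all genes uses the same scaled library sizes, and SDs are over 2 libraries. Whether the replicates came from separate cultures is not stated beyond "biological", so p values measure the spread between these libraries. Replicates differed by more than counting noise (chi-square per degree of freedom 13.7 and 18.1), so at high counts the number of libraries limits precision. On simulated counts with the means and library sizes of this comparison (16115 genes tested), 188 of 200 genes changed 2-fold were recovered with 3 false calls. The changed genes were drawn only from those at or above a minimum mean count. Every simulated gene had the same relative spread between libraries, which real genes need not have. Recovery at low counts, such as those of ACTC1, was not looked at apart, and recovery in the real libraries was not tested.

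The members, lists and naming rule were chosen with earlier results of these data known. The text names the 6 isoforms, TLN1, up to 4 called genes and the 2 highest genes per length of each list, the 4 actin-like sequences with the most counts, and the 5 nearest genes to ACTG1. ACTA2-AS1, FAS, VCL and the marker genes were named after their values were seen or as checks. Transcripts are those of GENCODE 29 and promoters those of RefSeq (GRCh38.p14). Alternatives used RLE, total counts, other filters, the legacy method, DESeq2 1.42.0 and limma 3.58.1. Exact word and motif matches used Python 3.11.15.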

Additional observations from a re-analysis of the deposited data

How the results depend on the processing

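With all 4 libraries, the log2 fold changes of ACTB (0.096 to 0.11), ACTA2 (0.14 to 0.16), ACTG2 (0.0067 to 0.020) and ACTC1 (−0.61 to −0.54) did not change sign or call under each scaling, filter and tool tried (DESeq2 gave no adjusted p for ACTC1). That of ACTG1, whose fall chose the family, was −1.35 to −1.33. Leaving out 1 library in turn, with the lone sample assumed to vary like the others, gave 0.037 to 0.16 for ACTB, −1.45 to −1.23 for ACTG1, 0.094 to 0.20 for ACTA2, −0.89 to −0.29 for ACTC1 and −0.040 to 0.057 for ACTG2, which turned sign. Signs also turned in the ranges of MICAL2 (−0.053 to 0.14), MYH9 (−0.099 to 0.063), SRF (−0.061 to 0.059), TMSB10 (−0.14 to 0.064), TPM2 (−0.12 to 0.056), TPM4 (−0.024 to 0.038) and POTEF (−0.28 to 0.66), and for SRF with no filter (0.011). The 980 genes changed ranged from 324 without siTLN1 a to 1100 without SCR a when 1 library was left out. With all 4 libraries and no block they ranged from 663 with no filter to 1253 with total counts only. The cause was not tested.

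Per kilobase of exon, the share difference was 16.1 percentage points for ACTB, −17.7 for ACTG1, 1.15 for ACTA2 and 0.0021 for ACTA1. Per kilobase of the longest-coding transcript, chosen after seeing the data, it was 13.1, −14.7, 1.20 and, for ACTG2, 0.39. Without ACTG1 in the sum, also chosen then, it was 0.097 for ACTB, 0.17 for ACTA2, −0.27 for ACTG2 and −0.0028 for ACTC1. These shifts follow from the new denominators.

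Whether equal replicate numbers mark a pairing was checked: replicate differences of the groups correlated at 0.19 across genes (0.54 at 5 CPM or more), and 2 pairs cannot establish a pairing. With the replicate block, limma-trend on the deposited log2 CPM called 3650 of all 16137 tested genes (951 without it). The blocked fit called 33 of the 134 pathway genes, against 3 without the block. In the 6 lists without an edgeR call, it called 22 of 91 tested genes. Calls thus rose over all tested genes and not in these lists alone. Of the named pathway genes, ELK3 (0.21, adjusted p 0.0082) and VASP (−0.17, adjusted p 0.029) passed with the block alone. In that fit ACTB was at 0.096, ACTG1 at −1.34, ACTA2 at 0.15 (adjusted p 0.0987), ACTG2 at 0.0073 and ACTC1 at −0.54, and ACTBL2 passed (0.77, adjusted p 0.00312), as it did with total counts only (0.80, adjusted p 0.0282) and without siTLN1 b (1.12, adjusted p 0.0101). The adjusted p of ACTBL2 ran from 0.00312 to 0.556 over its alternatives.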
